A study of Macaca mulatta with 20 samples.

Results

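Cytotoxic T cells were compared with B cells of the same animal in the blood of adult female rhesus macaques. The comparison used 8 of the 20 arrays of the series, which are the cytotoxic T cell array and the B cell array of each of the 4 animals that held dominance ranks 1, 2, 3 and 5. All 7303 probes entered it. Animals of the series came from different social groups, with 1 animal for each rank from 1 (high) to 5 (low), so effects of rank cannot be told apart from those of the animal or its group, and rank served here only to name the animal. Both populations were taken from peripheral blood mononuclear cells, no treatment is named for any animal, and the sources used here do not state the sorting gates. By its title, the series concerns social behaviour and gene regulation. The pair of the rank 4 animal was left out, because its arrays lack the transcripts of their lineage, and its values are given at the end.

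Cytotoxic T cells carry the CD8 co-receptor, recognise peptides held by MHC class I through the T cell receptor, and kill the cell that presents them with granules of perforin, granulysin and granzymes. B cells bind antigen with surface immunoglobulin, which signals through CD79A and CD79B, and present peptides on MHC class II to helper T cells before they become antibody-secreting plasma cells. In rhesus macaques, as in humans, natural killer (NK) cells share the granule genes and many receptors with cytotoxic T cells. A comparison of both lymphocyte types of 1 animal therefore holds the 2 antigen receptors, the killing machinery and antigen presentation side by side.

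Levels are the deposited normalized values, read as log2, so a difference of 1 log2 is a doubling on that reading. All 20 columns share 1 distribution, with a median of 8.39 and a range of 7.50 to 14.77, so a level tells where a probe stands among the probes of that array. In RNA from many cells, fewer cells of a type and less RNA per cell cannot be told apart. The 4 cytotoxic arrays correlated with each other over probes at 0.941 to 0.982 and the 4 B cell arrays at 0.925 to 0.977. Arrays of different types correlated at 0.83 to 0.896.

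CD8A and CD79B, the markers of the comparison, followed the labels of all 8 arrays. CD8A, the alpha chain of the CD8 co-receptor, read 13.90, 14.08, 13.84 and 14.36 in the cytotoxic T cells of ranks 1, 2, 3 and 5, and 8.20, 9.64, 10.97 and 8.71 in the B cells of the same animals. CD79B, the signalling chain of the B cell receptor, read 8.0, 8.18, 8.11 and 8.10 in cytotoxic T cells and 13.15, 13.49, 13.85 and 13.90 in B cells. Neither gene overlapped between the groups. Paired within animals, CD8A was higher in cytotoxic T cells by 4.66 ± 0.48 log2 (SE, n = 4 animals) and CD79B was higher in B cells by 5.50 ± 0.12. These values are given as a description, since the pair that lacks such transcripts had been left out.

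**Figure D1:**
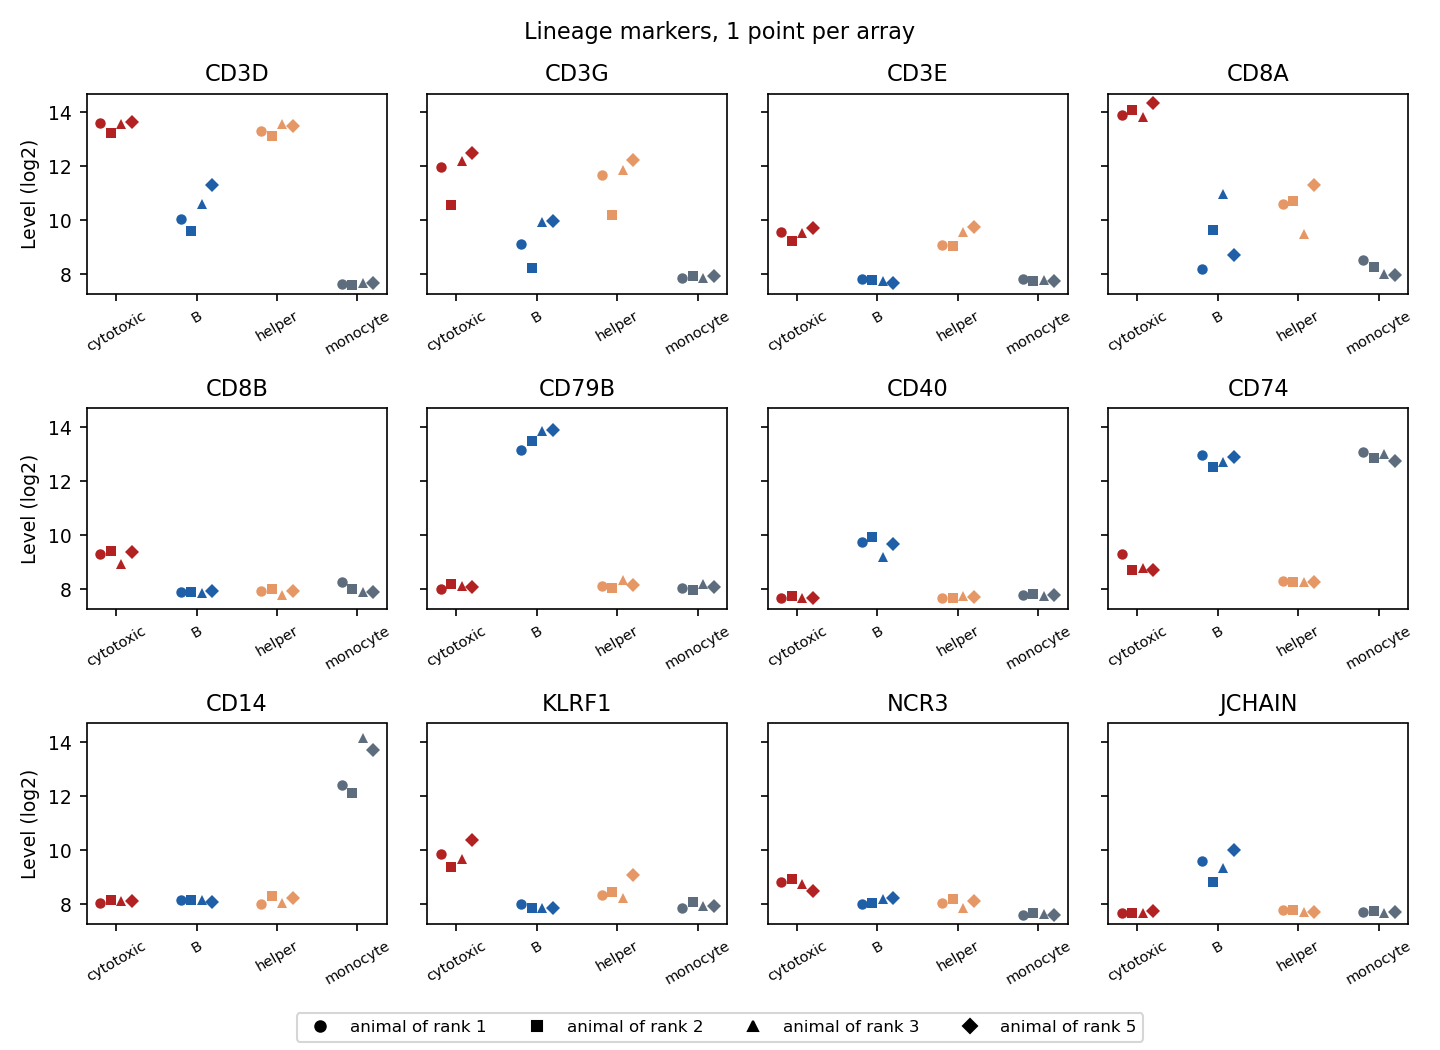
Levels (log2) of 12 lineage markers in the cytotoxic T cell, B cell, helper T cell and monocyte arrays of 4 animals, 1 point per array, with the symbol giving the animal's rank. CD3E lies at or below 7.84 in B cells, while CD3D there lies between 9.59 and 11.30, above monocytes and below both T cell types.

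T cell transcripts were not uniformly low in the B cell arrays. CD3D, a chain of the CD3 complex of the T cell receptor, read 10.05, 9.59, 10.59 and 11.30 in the B cells of ranks 1, 2, 3 and 5, against at most 7.69 in the monocytes of the same animals. CD3G, another chain of that complex, read 9.12, 8.23, 9.93 and 9.98 in these B cells, with at most 7.93 in monocytes. CD8A read 8.20, 9.64, 10.97 and 8.71 in these B cells, against at most 8.54 in monocytes. The surface receptor CD6 read 8.17, 8.22, 8.60 and 8.82 there, against at most 7.64 in monocytes. The epsilon chain CD3E, in contrast, was at most 7.84 in B cells and 7.83 in monocytes. The signalling genes LAT and ZAP70 were also at the monocyte level in every B cell array. Over the 5 fixed T cell markers the mean level was 8.62 to 9.42 in the B cell arrays, 11.31 to 11.92 in the cytotoxic arrays and 7.85 to 8.02 in monocytes. The fixed B cell markers that were measured, CD79B and CD72, had a mean level of 7.88 to 7.94 in the cytotoxic arrays, about that of monocytes (7.87 to 8.01). The part of T cell RNA in the B cell arrays in the differences below was not tested.

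Other blood cells were measured by their own markers. The mean of CD14, S100A9, CST3 and FCER1G, the monocyte markers, was 7.91 to 8.10 in cytotoxic T cells and 8.04 to 8.31 in B cells, against 13.22 to 13.77 in monocytes. The granulocyte markers CSF3R and CAMP had a mean of 7.79 to 8.07 in cytotoxic T cells and 7.80 to 8.05 in B cells. Of the NK cell markers 3 of 5 were measured, and their mean was 8.70 to 8.89 in cytotoxic T cells and 7.90 to 7.94 in B cells. NCR3 and KLRF1, activating receptors of NK cells, made up this gap, while NCAM1, which marks monocytes rather than NK cells in macaque blood, was at 7.75 in both. The part of NK cells of the CD8 sort in the killer cell genes below was not tested. Neither of the 2 fixed platelet markers was measured.

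Of all probes, 25.4% (1854) differed between cytotoxic T cells and B cells at an adjusted p under 0.05 by limma. Higher in cytotoxic T cells were 981 (13.4%) and higher in B cells 873 (12.0%). Most of these differences were small, with a median size of 0.50 log2 among the called probes. At least 1 log2 separated the types in 375 probes (5.13%), of which 182 (2.49%) were higher in cytotoxic T cells, against 193 (2.64%) in B cells. The 4 arrays of each type did not overlap for 714 probes (9.78%) that were higher in cytotoxic T cells and for 716 (9.8%) that were higher in B cells, and 359 of the 375 large differences were among them. The median difference over all probes was -0.009 log2.

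Counted once per gene, taking its brightest probe over the 8 arrays, 766 named genes were higher in cytotoxic T cells against 698 in B cells. Large differences were found for 140 and 156 of them. A further 196 called probes carry no gene name. The pairing by animal carried much of the precision. Without the animal as a block 993 probes were called, 514 higher in cytotoxic T cells against 479 in B cells, and 983 of them were shared with the paired count. The number of probes with a large difference was less affected, at 355.

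**Figure D2:**
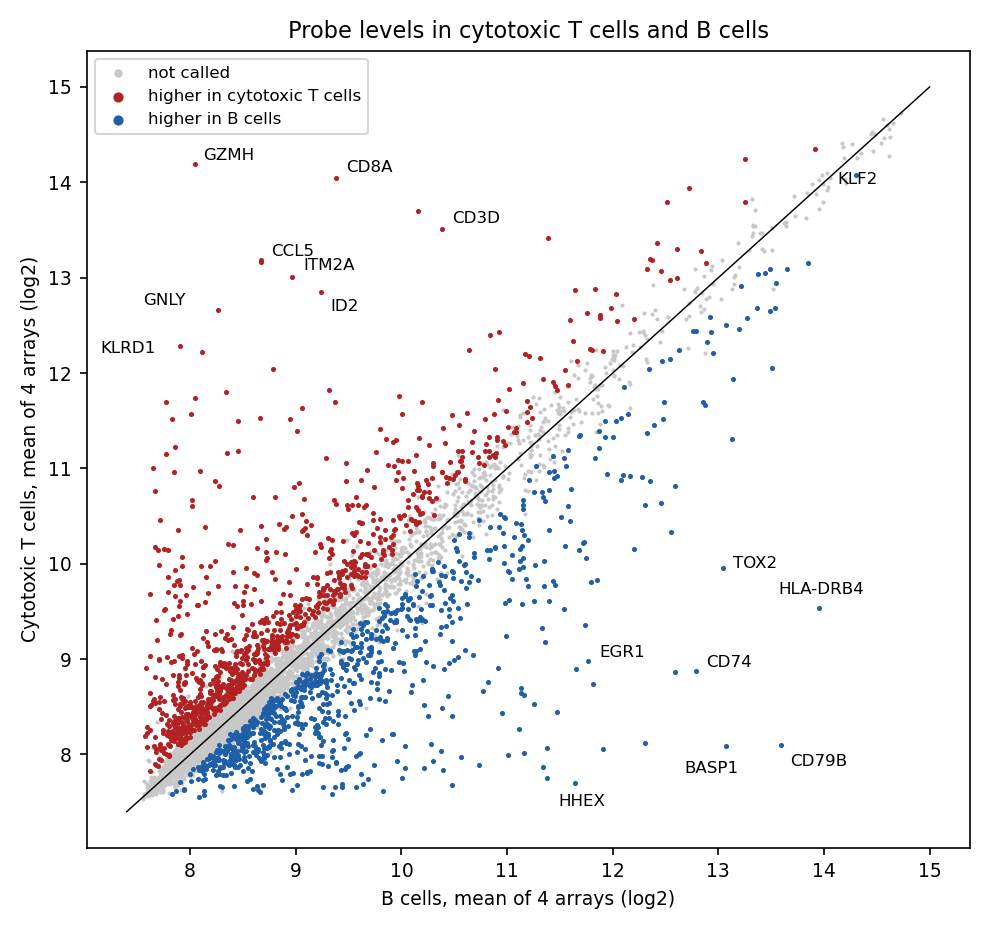
Mean level (log2) of each of the 7303 probes in the 4 B cell arrays (horizontal axis) and the 4 cytotoxic T cell arrays (vertical axis), with probes of adjusted p under 0.05 coloured by the type in which they are higher. GZMH and CD8A lie farthest above the diagonal and CD79B and BASP1 farthest below it.

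Taking the brightest probe of each gene, the 15 genes with the largest differences on the cytotoxic side were GZMH, CD8A, CCL5, GNLY, KLRD1, SYTL2, ITM2A, GZMK, IL7R, ID2, BCL11B, CD2, RORA, PPP2R2B and SPOCK2. On the B cell side they were CD79B, BASP1, HLA-DRB4, HHEX, CD74, HLA-DQB1, CTSH, NAPSB, FGD2, LDB2, TOX2, PRCP, PLBD1, CD86 and RAB30. For all 30 the arrays of the types did not overlap, against 9.78% of all probes on the cytotoxic side and 9.8% on the B cell side. Each was called in each of the 4 fits that left out 1 animal. The 30 were picked from these same arrays as the largest called differences, so both traits follow largely from that choice. The smallest of these differences was 2.84 log2 (RAB30). The next genes outside the list were CD3D with 3.13 and KCNIP3 with -2.80 (cytotoxic minus B). The order depends on the probe taken. The other probe of CD3D differed by 3.54. With the mean of all probes of a gene, CD3D (3.33) would precede SPOCK2 (3.26). ID2 (2.93), ITM2A (2.47), SYTL2 (2.38), RORA (2.29), IL7R (2.20) and PPP2R2B (2.13) would fall below both. On the B cell side TOX2, at -1.82, would be smaller in size than KCNIP3.

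**Figure D3:**
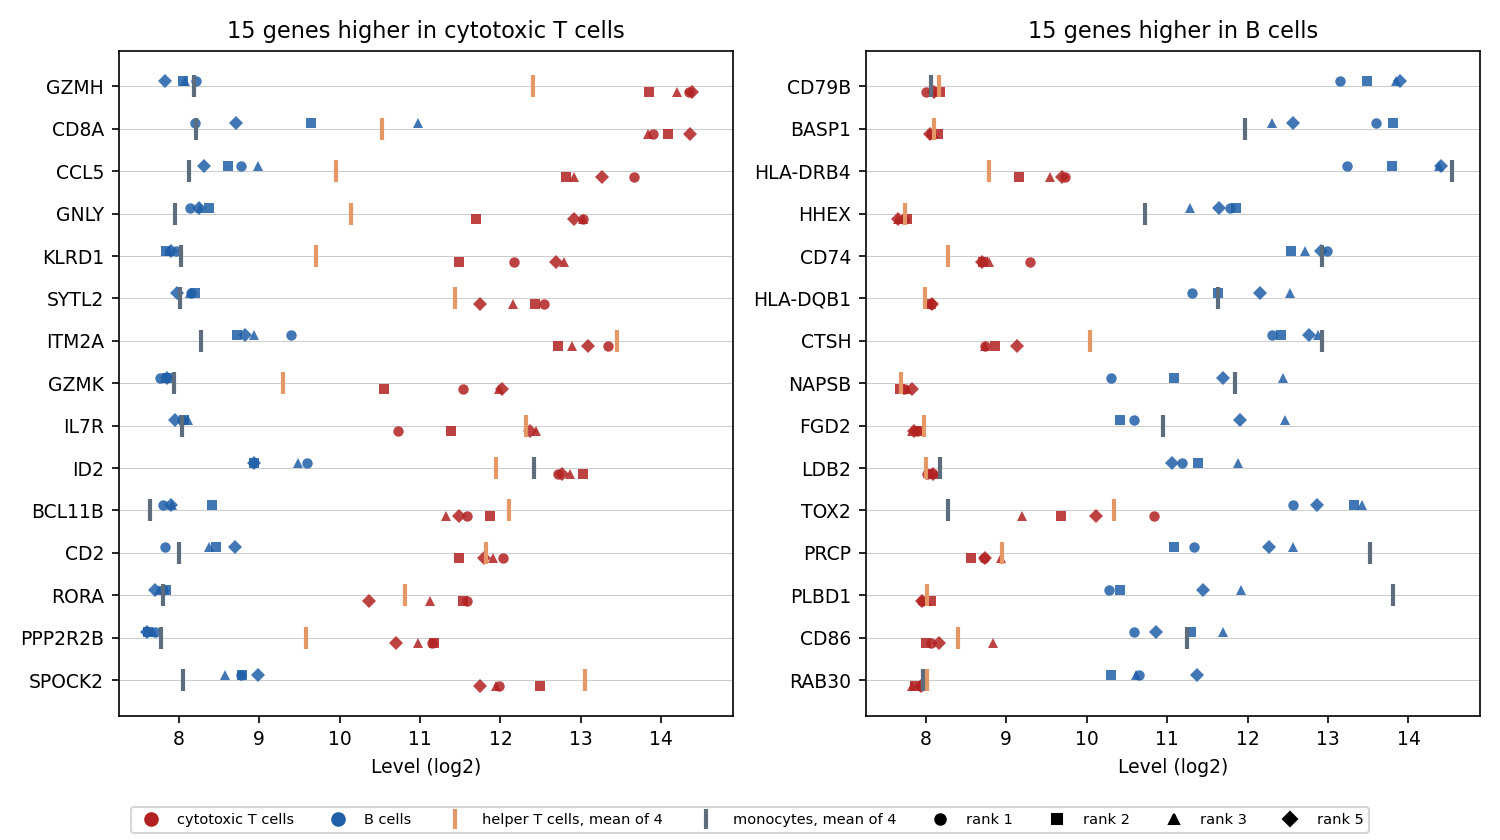
Levels (log2) of the 15 genes with the largest difference on each side, 1 point per array in cytotoxic T cells (red) and B cells (blue), with the symbol giving the animal's rank and vertical ticks giving the mean of the 4 helper T cell and 4 monocyte arrays. Red and blue points do not overlap for any of the 30 genes, whose differences run from 2.84 to 6.14 log2. The genes were picked from these same arrays for the size of their difference.

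Cytotoxic granule genes held the largest difference of the comparison. GZMH, a serine protease of the granules, read 14.34, 13.85, 14.19 and 14.38 in the cytotoxic T cells of ranks 1, 2, 3 and 5, and 8.22, 8.05, 8.08 and 7.83 in the B cells. No B cell array came near a cytotoxic array. The difference was 6.14 ± 0.12 log2 (95% interval 5.85 to 6.44, limma adjusted p = 1.38e-05). GNLY, the pore-forming granulysin, read 13.03, 11.69, 13.03 and 12.91 in cytotoxic T cells and 8.14, 8.38, 8.26 and 8.25 in B cells. The animal of rank 2 was lowest among the cytotoxic arrays, yet its pair still differed by 3.30, and the mean difference was 4.41 ± 0.27 (adjusted p = 0.000267).

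GZMK, another granzyme, was also lowest in the cytotoxic array of rank 2. It read 11.53, 10.55, 11.98 and 12.02 in cytotoxic T cells and 7.77 to 7.86 in B cells, a difference of 3.69 ± 0.25 (adjusted p = 0.000372). CCL5, a chemokine stored in these granules, read 13.66, 12.81, 12.92 and 13.26 against 8.77, 8.61, 8.98 and 8.31 in B cells, a difference of 4.5 ± 0.19. Of 13 measured genes on the granule list, 10 were higher in cytotoxic T cells, none was higher in B cells and 3 were not called, with a median difference of 2.41 log2. Over all probes 13.4% were higher in cytotoxic T cells. Among the 10 were also GZMA (2.41 ± 0.24), the membrane protein NKG7 (2.47 ± 0.22), the protease inhibitor CST7 (2.81 ± 0.24) and the pore former PRF1 (1.70 ± 0.10). SRGN, the proteoglycan core that packs granule proteins, was bright in both types, at a mean of 14.24 in cytotoxic T cells against 13.25 in B cells. HOPX (0.43 ± 0.08) was called at an adjusted p of 0.0141 but reached 0.0554 without the animal of rank 2 or of rank 5. The death ligands FASLG (0.34, 95% interval 0.10 to 0.59) and TNFSF10 (0.16, 0.04 to 0.28) and the protease CTSC (0.04, -0.20 to 0.27) were not called. Another probe of CTSC was called as higher in cytotoxic T cells (0.21, adjusted p = 0.0469). FASLG and TNFSF10 lay below 8.39 on average in both types.

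Killer cell receptors went with the granule genes. KLRD1, which pairs with NKG2 chains to read HLA-E, measured 12.17, 11.49, 12.79 and 12.69 in cytotoxic T cells. In the B cell arrays it was between 7.84 and 7.97, and the difference was 4.38 ± 0.21 (adjusted p = 0.00013). All 7 measured genes on the list of killer cell and inhibitory receptors were higher in cytotoxic T cells, with a median of 1.94. Of all probes 13.4% were. LAG3, an inhibitory receptor for MHC class II, differed by 2.45 ± 0.15, KLRG1 by 2.06 ± 0.32 and KLRF1 by 1.94 ± 0.16. KLRG1 varied among the animals, at 9.04 and 9.12 in the cytotoxic T cells of ranks 1 and 2 and at 10.90 and 10.36 in those of ranks 3 and 5. KLRC1 (0.79 ± 0.14) and KLRB1 (0.61 ± 0.09) differed less. KLRC1 had an adjusted p of 0.0533 without rank 5. CTLA4, a checkpoint receptor, had the smallest difference (0.23 ± 0.06, adjusted p = 0.0451) and was not called without rank 1, 2 or 5 (0.122 to 0.156). The NK cell marker NCR3 differed by 0.64 ± 0.12, with an adjusted p of 0.0119 that came to 0.0513 without rank 1.

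The T cell receptor and its surface partners were higher in cytotoxic T cells for 9 of 10 measured genes, with a median difference of 2.51. Over all probes 13.4% were higher there. CD3D read 13.59, 13.24, 13.57 and 13.66 in cytotoxic T cells, so its difference of 3.13 ± 0.22 (adjusted p = 0.000381) was taken against the raised B cell levels given above. CD3G differed by 2.51 ± 0.11 in the same way. CD3E, which was low in B cells, had the smaller difference of 1.76 ± 0.10, with 9.24 to 9.72 in cytotoxic T cells. CD2, an adhesion receptor of T and NK cells, read 12.03, 11.48, 11.91 and 11.79 in cytotoxic T cells and 7.83, 8.46, 8.38 and 8.70 in B cells, a difference of 3.46 ± 0.20.

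IL7R, the receptor chain for the survival cytokine interleukin 7, was also on this list. It read 10.73, 11.39, 12.44 and 12.37 in cytotoxic T cells and 7.95 to 8.11 in B cells, and differed by 3.69 ± 0.30 (adjusted p = 0.000662). Its second probe differed by 0.71 in the same direction. The scavenger-family receptors CD6 and CD5 differed by 3.05 ± 0.10 and 1.32 ± 0.12, CD96 by 2.51 ± 0.21 and the adaptor TRAT1 by 1.94 ± 0.12. CD28, the co-stimulatory receptor, was not called (0.15, 95% interval -0.01 to 0.32), with a mean of 8.06 in cytotoxic T cells against 7.90 in B cells. Its only probe also averaged 8.12 in helper T cells and 8.01 in monocytes, all below the median of 8.39. In the co-receptor list CD8B was higher in cytotoxic T cells by 1.35 ± 0.09, and CD4 was not called (-0.06, -0.21 to 0.09).

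Signalling genes just below the receptor were higher in cytotoxic T cells for 7 of 7 measured, with a median of 2.28. Over all probes the share on that side was 13.4%. LAT, the scaffold that is phosphorylated once the receptor is activated, read 10.72, 10.64, 10.63 and 11.05 in cytotoxic T cells and 7.58 to 7.71 in B cells. Its difference was 3.10 ± 0.07 (adjusted p = 1.38e-05). ZAP70, the kinase that phosphorylates LAT, differed by 2.28 ± 0.05, and its second probe by 0.19 without a call. The kinase FYN differed by 2.73 ± 0.12 and the adaptor SKAP1 by 2.65 ± 0.15. PAG1 (1.20 ± 0.18), LCP2 (0.51 ± 0.06) and SIT1 (0.19 ± 0.05) closed the list. SIT1, with an adjusted p of 0.0377, was not called without any 1 of the animals (0.0840 to 0.126).

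Transcription factors of T cells were led by ID2, BCL11B and RORA. ID2, an inhibitor of E proteins in effector lymphocytes, read 12.71, 13.03, 12.87 and 12.77 in cytotoxic T cells and 9.59, 8.93, 9.48 and 8.93 in B cells, a difference of 3.61 ± 0.17. BCL11B, a factor of T cell commitment, read 11.59, 11.87, 11.32 and 11.49 against 7.81, 8.41, 7.92 and 7.90, a difference of 3.56 ± 0.08 (adjusted p = 1.38e-05). RORA, a nuclear receptor of T cells, read 11.59, 11.53, 11.12 and 10.36 against 7.70 to 7.84, a difference of 3.38 ± 0.19. No B cell array approached the cytotoxic level of any of them.

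Of 11 measured factors 9 were higher in cytotoxic T cells, against 13.4% of all probes, and the median of the list was 2.54. EOMES, a factor of effector and memory killer cells, differed by 2.75 ± 0.09, STAT4, which carries the interleukin 12 signal, by 2.63 ± 0.14, and LEF1, a nuclear partner of Wnt signalling, by 2.54 ± 0.28. PRDM1, which drives terminal differentiation in T and B cells, differed by 1.85 ± 0.07, RUNX3 by 0.95 ± 0.09 and TOX by 0.72 ± 0.06. KLF2 had a mean of 13.92 in cytotoxic T cells against 14.03 in B cells, and was not called (-0.11, 95% interval -0.34 to 0.12). IKZF2 was not called either (0.02, -0.13 to 0.18). The probes of some factors and signalling genes disagreed in size. With the mean of all probes of the gene the difference was 2.29 for RORA, 2.93 for ID2, 1.59 for LEF1, 1.09 for PRDM1, 0.55 for RUNX3, 1.61 for FYN and 1.24 for ZAP70.

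The other 4 of the 15 leading genes belong to no list. SYTL2, a synaptotagmin-like protein of vesicle transport, read 12.54, 12.43, 12.16 and 11.74 in cytotoxic T cells and 7.98 to 8.20 in B cells, a difference of 4.10 ± 0.11. ITM2A, a membrane protein of thymocytes and activated T cells, read 13.34, 12.72, 12.89 and 13.09 against 9.39, 8.73, 8.93 and 8.82, a difference of 4.04 ± 0.07. The animal of rank 1 was highest in both types for ITM2A, so its difference varied little, from 3.95 to 4.27. PPP2R2B, a regulatory subunit of protein phosphatase 2A, differed by 3.35 ± 0.08, and SPOCK2, a secreted proteoglycan, by 3.26 ± 0.15. Second probes gave smaller differences in the same direction for SYTL2 (0.67), ITM2A (0.89) and PPP2R2B (0.91).

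The leading cytotoxic genes were set beside helper T cells of the same animals, in a fit that shares the cytotoxic arrays. In that fit 78 probes (1.07%) were higher in cytotoxic and 62 (0.849%) higher in helper T cells, over all 7303 probes. Of the 15 genes, 7 were higher in cytotoxic than in helper T cells, namely CD8A by 3.51 log2, CCL5 by 3.21, KLRD1 by 2.57, GNLY by 2.53, GZMK by 2.22, GZMH by 1.78 and PPP2R2B by 1.42. GZMH, although highest in cytotoxic T cells, was at 11.69 to 12.76 in helper T cells. ITM2A, BCL11B and SPOCK2 were higher in helper T cells by 0.44, 0.54 and 1.01. SYTL2, IL7R, ID2, CD2 and RORA were not called. With the 20 arrays, in which the rank 4 cytotoxic array took part, none of the 15 was called higher in cytotoxic T cells by limma, and 5 were higher at an unadjusted p under 0.05. The share of all probes called in that fit is not given here, so these counts cannot be set against it.

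On the B cell side CD79B led. Its differences in the 4 animals lay between 5.14 and 5.80 log2, and it was at 8.0 to 8.18 in cytotoxic T cells, 8.04 to 8.34 in helper T cells and 7.97 to 8.19 in monocytes. Of 6 measured B cell markers 4 were higher in B cells and 2 were not called, with a median of -0.79 (cytotoxic minus B). Over all probes 12.0% were higher in B cells. CD40, the receptor for helper T cell signals, read 9.75, 9.93, 9.19 and 9.66 in B cells and at most 7.74 in cytotoxic T cells, a difference of 1.95 ± 0.12 (adjusted p = 0.000249). CD72, an inhibitory co-receptor, was higher in B cells by 0.82 ± 0.17 and the scaffold BANK1 by 0.76 ± 0.11. CD72 had an adjusted p of 0.0191, and of 0.0523 without rank 1. FCRLA (-0.68, cytotoxic minus B, 95% interval -1.19 to -0.17) and the complement receptor CR2 (-0.17, -0.52 to 0.18) were not called. CD79A, MS4A1 and CD22 were not analysed here, so the marker check on B cells rests on few genes.

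Signalling below the B cell receptor was represented by 5 genes, of which CD79B, CD72 and BANK1 are also B cell markers. The phosphatase PTPN6, which restrains the receptor, was higher in B cells by 1.58 ± 0.10. It read 10.65, 10.77, 11.98 and 11.97 in B cells and 9.38, 9.27, 10.18 and 10.21 in cytotoxic T cells, lower in both types in ranks 1 and 2. The exchange factor VAV3 was not called (0.32, 95% interval -0.11 to 0.76). Without rank 5 it was called as higher in cytotoxic T cells (adjusted p = 0.0388).

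MHC class II presentation had the most negative median of the lists with 2 or more measured genes, at -3.79 log2 (cytotoxic minus B). In it 6 of 6 genes were higher in B cells, against 12.0% of all probes. The probe named HLA-DRB4, which cannot be assigned to 1 macaque class II gene, read 13.24, 13.79, 14.38 and 14.41 in B cells and 9.73, 9.16, 9.55 and 9.69 in cytotoxic T cells, a difference of 4.42 ± 0.23 (adjusted p = 0.00015). CD74, the invariant chain that guides class II molecules, read 12.99, 12.54, 12.72 and 12.91 in B cells and 9.30, 8.71, 8.78 and 8.70 in cytotoxic T cells, a difference of 3.92 ± 0.09. HLA-DQB1, a class II beta chain, read 11.31, 11.63, 12.53 and 12.15 against 8.03 to 8.08, a difference of 3.84 ± 0.20.

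CTSH, a lysosomal protease, differed by 3.73 ± 0.11, and by 2.02 with its second probe. HLA-DOB, which modulates peptide loading in B cells, read 9.92, 10.80, 11.10 and 11.46 in B cells. Its cytotoxic levels were 7.83, 7.87, 9.12 and 10.22, so the highest cytotoxic array passed the lowest B cell array, although B cells were higher in each pair (2.06 ± 0.25, adjusted p = 0.00305). CIITA, the activator that switches these genes on, differed by 0.80 ± 0.12 at a low level, with a mean of 8.71 in B cells. CD86, a co-stimulatory ligand for CD28, read 10.59, 11.30, 11.70 and 10.86 in B cells and 8.07, 8.0, 8.83 and 8.16 in cytotoxic T cells, a difference of 2.85 ± 0.13.

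All 7 measured B cell transcription factors were higher in B cells, against 12.0% of all probes, with a median of -1.76 (cytotoxic minus B). HHEX, a homeobox factor, read 11.78, 11.86, 11.28 and 11.65 in B cells and 7.65 to 7.76 in cytotoxic T cells, a difference of 3.94 ± 0.09 (adjusted p = 1.38e-05). BCL11A, a factor of early B cells, read 9.82, 9.61, 10.99 and 11.83 in B cells and 7.96 to 7.99 in cytotoxic T cells, a difference of 2.59 ± 0.37. The spread of BCL11A lay in the B cell arrays, where ranks 3 and 5 were higher than ranks 1 and 2. EBF1, a factor of B cell specification, differed by 1.76 ± 0.13, TCF4 by 1.77 ± 0.23, AFF3 by 1.59 ± 0.10, MEF2C by 1.02 ± 0.13 and BACH2 by 0.82 ± 0.13. Of 4 measured genes on the list of plasma cells and antibody secretion 2 were higher in B cells and 1 was higher in cytotoxic T cells. The last was not called, and the median was -0.66 (cytotoxic minus B). Over all probes 12.0% were higher in B cells and 13.4% in cytotoxic T cells. The gene that went to the cytotoxic side was PRDM1, by the 1.85 given above. The antibody secretion genes JCHAIN, the joining chain of polymeric antibodies, and MZB1 were higher in B cells by 1.75 ± 0.18 and 1.40 ± 0.11. JCHAIN had a mean of 9.44 ± 0.50 (SD) in B cells, with its lowest array at 8.81, and at most 7.75 in cytotoxic T cells. SDC1, the plasma cell marker CD138, was not called (0.08, 95% interval -0.06 to 0.23).

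The remaining leading B cell genes have less settled roles in B cells. BASP1, a membrane-bound signalling protein, read 13.60, 13.81, 12.31 and 12.56 in B cells and 8.05 to 8.15 in cytotoxic T cells, a difference of 4.98 ± 0.26 (adjusted p = 0.000171). TOX2, a factor of the TOX family, was also present in T cells. It read 12.56, 13.32, 13.42 and 12.86 in B cells and 10.84, 9.68, 9.20 and 10.11 in cytotoxic T cells, so its difference of 3.09 ± 0.39 ranged from 1.72 in rank 1 to 4.23 in rank 3. Its 2 other probes differed by 0.70 and 1.66. FGD2, a guanine exchange factor of antigen-presenting cells, read 10.59, 10.41, 12.46 and 11.90 in B cells and at most 7.92 in cytotoxic T cells. The aspartic protease family member NAPSB behaved alike, at 10.30, 11.09, 12.44 and 11.70 in B cells. FGD2 differed by 3.47 ± 0.37 and NAPSB by 3.63 ± 0.32. LDB2, a LIM domain binding protein (3.31 ± 0.13), the carboxypeptidase PRCP (3.07 ± 0.22), the phospholipase-like PLBD1 (3.02 ± 0.29) and the small GTPase RAB30 (2.84 ± 0.16) completed the 15.

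These genes were set beside monocytes, which also present antigen, in a fit that shares the B cell arrays. There 2202 probes (30.2%) were higher in B cells and 1645 (22.5%) higher in monocytes. Of the 15 genes, 5 were higher in B cells than in monocytes, namely CD79B by 5.53 log2, TOX2 by 4.76, LDB2 by 3.20, RAB30 by 2.77 and HHEX by 0.92. PLBD1, PRCP and HLA-DRB4 were higher in monocytes by 2.80, 1.70 and 0.59. BASP1, CD74, HLA-DQB1, CTSH, NAPSB, FGD2 and CD86 were not called. Monocyte markers themselves were at most slightly above the cytotoxic level in B cells. CST3, a secreted protease inhibitor, read 14.43 to 14.73 in monocytes and 8.38 to 8.83 in B cells. It was 0.64 ± 0.09 higher there than in cytotoxic T cells, while CD14 was not called (-0.02, 95% interval -0.15 to 0.10). Of 10 measured genes on the wider monocyte list, CST3 and CSF1R were higher in B cells and 8 were not called. Over all probes 12.0% were higher in B than in cytotoxic T cells. CSF1R was not called without rank 1, 2 or 5 (adjusted p 0.0725 to 0.125).

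**Figure D4:**
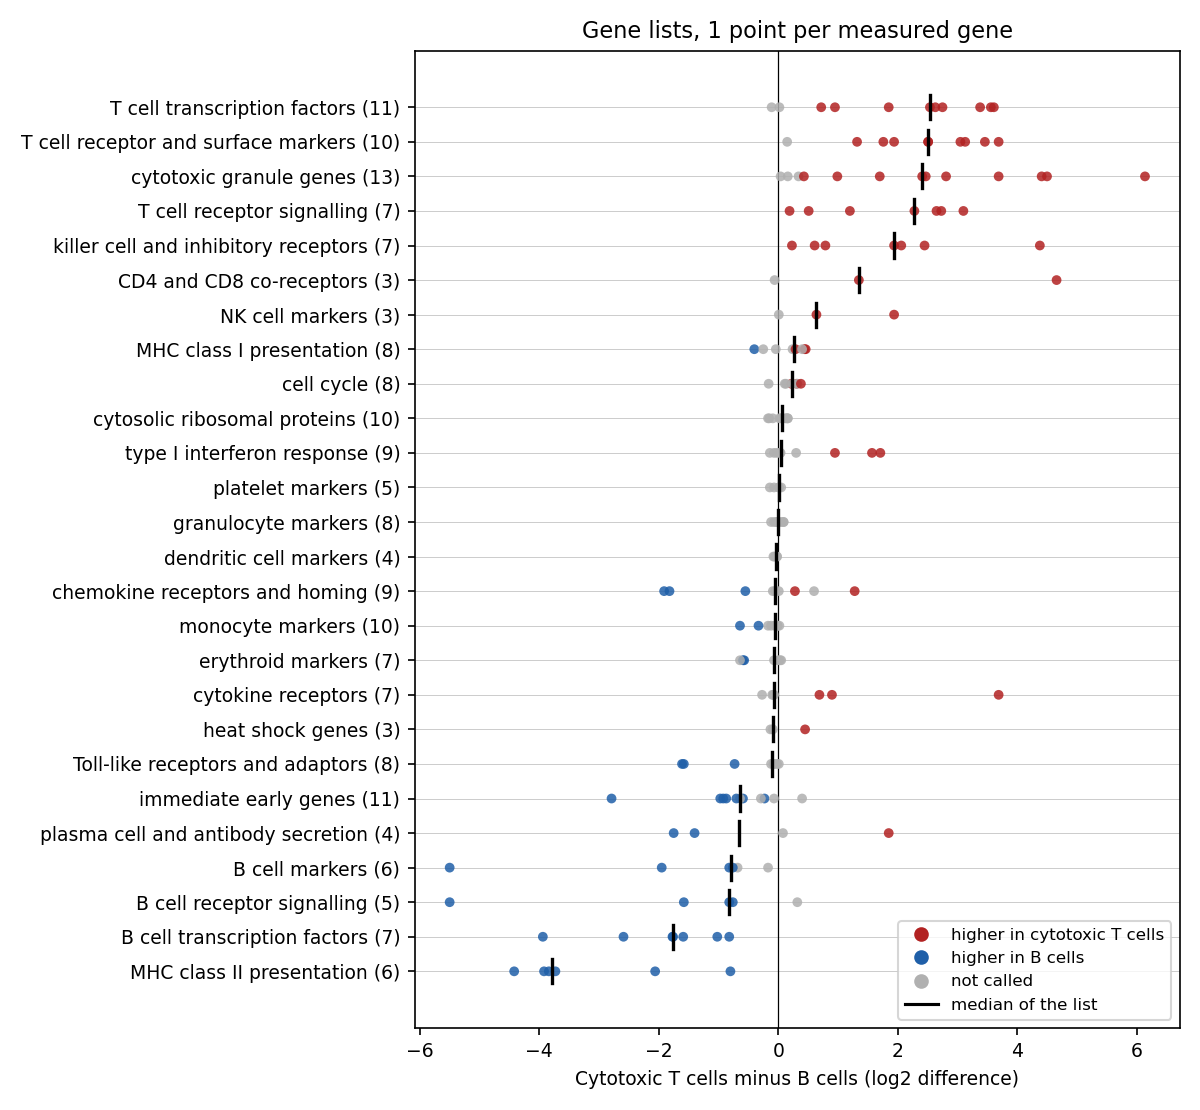
Difference of cytotoxic T cells minus B cells (log2) for each measured gene of the 26 gene lists with at least 2 measured genes, coloured by the type in which the gene was called higher and grey where it was not called, with a black bar at the median of each list and the number of measured genes in parentheses. The lists of the T cell receptor, its signalling, granule genes, killer cell receptors and T cell transcription factors lie at medians of 1.94 to 2.54, the co-receptors at 1.35 and MHC class II presentation at -3.79, while the ribosomal list lies at 0.06.

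Receptors for chemokines and homing divided between the types. CXCR5, which guides cells into B cell follicles, read 9.64, 9.85, 9.23 and 9.58 in B cells and 7.61 to 7.74 in cytotoxic T cells, a difference of 1.91 ± 0.09 (adjusted p = 0.00013). GPR183, an oxysterol receptor that positions B cells, was present in both and higher in B cells by 1.82 ± 0.12, with 12.83 to 13.31 there and 10.56 to 11.72 in cytotoxic T cells. CX3CR1, a fractalkine receptor of effector killer cells, read 8.95, 9.53, 8.42 and 9.06 in cytotoxic T cells and 7.63 to 7.77 in B cells, a difference of 1.28 ± 0.15. Of 9 genes measured, 2 were higher in cytotoxic T cells, 3 in B cells and 4 were not called, against 13.4% and 12.0% of all probes. The integrin chain ITGB7 was 0.55 ± 0.07 higher in B cells, with overlapping arrays. SELPLG was 0.28 ± 0.05 higher in cytotoxic T cells, and reached an adjusted p of 0.0526 without rank 2. CXCR4, a receptor that both types carry, was not called (0.60, 95% interval 0.10 to 1.10) and had an adjusted p of 0.0193 without rank 5. Its other probe was called as higher in cytotoxic T cells (0.62, adjusted p = 0.0144).

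Among cytokine receptors 3 of 7 were higher in cytotoxic T cells and none in B cells, against 13.4% and 12.0% of all probes. Besides IL7R these were IL2RG, the common gamma chain (0.69 ± 0.09), and TGFBR2 (0.90 ± 0.17), which had an adjusted p of 0.0555 without rank 2. GIMAP7, the only measured GTPase of its family, was higher in cytotoxic T cells by 0.80 ± 0.11. Of 8 Toll-like receptor genes and adaptors 3 were higher in B cells, against 12.0% of all probes, and 5 were not called. TLR10 read 8.72 to 10.02 in B cells, lower in ranks 1 and 2 than in ranks 3 and 5, and 7.81 to 7.97 in cytotoxic T cells, a difference of 1.61 ± 0.23. LY86, a partner of the TLR-like molecule RP105, differed by 1.58 ± 0.25 and the chaperone UNC93B1 by 0.73 ± 0.15. UNC93B1 had an adjusted p of 0.0729 without rank 5.

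MHC class I presentation, used by nearly every cell, showed small differences in both directions. Of 8 genes 3 were higher in cytotoxic T cells, 1 in B cells and 4 were not called, with a median of 0.27. Over all probes 25.4% were called. B2M, the light chain of class I, was bright in both types, at a mean of 13.28 in cytotoxic T cells against 12.84 in B cells, a difference of 0.44 ± 0.10. HLA-F differed by 0.46 ± 0.06, with overlapping arrays. The peptide transporter chains went apart, TAP1 0.29 ± 0.07 higher in cytotoxic T cells and TAP2 0.40 ± 0.11 higher in B cells. Only HLA-F of these 4 was called without each animal in turn. B2M was lost without rank 2 or 3, TAP1 without rank 1, 3 or 5 and TAP2 without rank 1, 2 or 3 (adjusted p 0.0585 to 0.151).

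Type I interferon response genes were called for 3 of 9, each higher in cytotoxic T cells, against 25.4% of all probes called and 13.4% on that side. IFI44 read 10.92, 9.29, 9.18 and 9.31 in cytotoxic T cells and 7.82 to 8.09 in B cells, with the animal of rank 1 far above the others, and differed by 1.71 ± 0.28 (adjusted p = 0.00791). IFITM1, a membrane protein that blocks virus entry, read 11.61, 11.05, 11.76 and 11.87 against 9.50, 9.35, 10.34 and 10.84 in B cells, a difference of 1.57 ± 0.17. IFI6 differed by 0.95 ± 0.14. The other 6, among them ISG15 (0.30, 95% interval 0.08 to 0.51) and IRF7 (-0.02, -0.16 to 0.12), were not called, and the median of the list was 0.04. Cell cycle genes were called for 3 of 8, each higher in cytotoxic T cells and by under 0.5 log2. The shares over all probes are again 25.4% called and 13.4% on that side. CCNA2 (0.38 ± 0.06) was called without each animal, CDC20 (0.31 ± 0.06) was lost without rank 1, 3 or 5 (adjusted p 0.0512 to 0.0572), and CDK1 (0.22 ± 0.05) was lost without any of them (0.0508 to 0.103).

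Immediate early genes, switched on rapidly by receptor signals and by handling of cells, were higher in B cells for 7 of 11 and not called for 4, where 12.0% of all probes were higher in B cells. EGR1, a zinc finger factor of this class, read 12.20, 11.10, 12.10 and 11.66 in B cells and 9.40, 8.47, 9.38 and 8.66 in cytotoxic T cells. Its levels moved together in the types of 1 animal, so that the paired difference of 2.79 ± 0.07 (adjusted p = 1.71e-05) varied only from 2.62 to 3.00. FOS, a subunit of the AP-1 factor, read 13.05, 9.16, 12.41 and 11.69 in B cells and 12.52, 8.55, 11.40 and 9.95 in cytotoxic T cells. The arrays of FOS overlapped, since its range over animals was wider than its paired difference of 0.97 ± 0.20. JUNB (0.92 ± 0.20), FOSB (0.87 ± 0.21), PPP1R15A (0.70 ± 0.08), DUSP1 (0.59 ± 0.10) and JUND (0.23 ± 0.06) were also higher in B cells.

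The call was lost for FOS without rank 3, for JUNB without rank 2 or 5, for FOSB without rank 2, 3 or 5 and for JUND without rank 1, 2 or 5 (adjusted p 0.0523 to 0.122). JUN (0.40, 95% interval -0.30 to 1.10), NR4A2 and EGR3 were not called with every animal included. They were called without rank 3, 5 and 3 in turn (adjusted p 0.0078, 0.0298 and 0.0368). JUN was then higher in cytotoxic T cells, and the other pair in B cells. ATF3 was not called. Of the heat shock genes HSPH1 was 0.45 ± 0.11 higher in cytotoxic T cells, with an adjusted p of 0.117 and 0.100 without rank 1 and 2, and HSP90AB1 and BAG3 were not called.

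**Figure D5:**
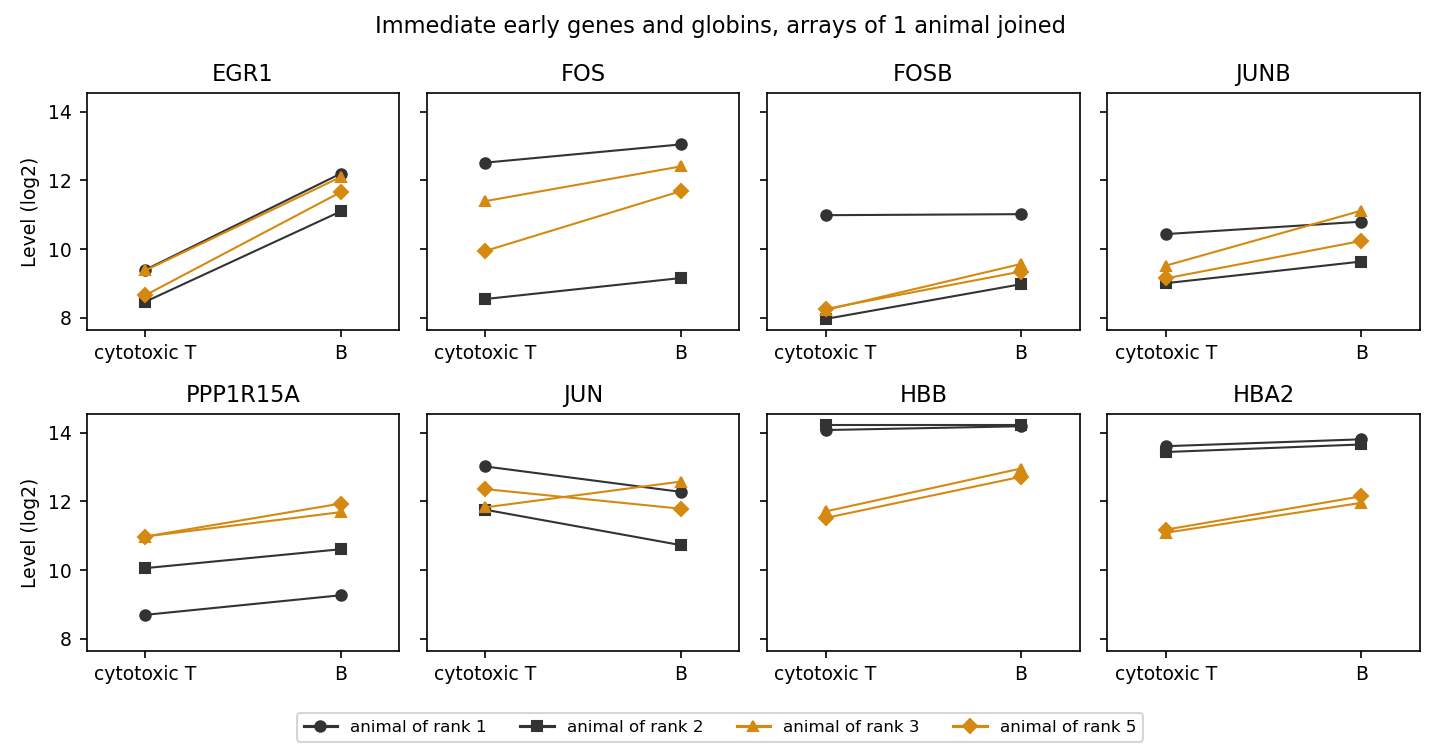
Levels (log2) of 6 immediate early genes and 2 globin genes in cytotoxic T cells and B cells, with the arrays of 1 animal joined by a line and ranks 1 and 2 in a different colour from ranks 3 and 5. EGR1 rises from cytotoxic T cells to B cells by 2.62 to 3.00 in each animal, and both globins are higher in ranks 1 and 2 in either cell type.

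Of 7 measured genes of red blood cells, the globins HBA1 and HBA2 were higher in B cells and 5 were not called. Over all probes 12.0% were higher in B cells. The globin HBD lay between 7.90 and 8.23 in the 8 arrays, and ALAS2, AHSP and EPB42 were at most 8.15 in any of them. HBB, HBA1 and HBA2 were at 9.81 or more in each array and differed between animals. HBB read 14.08, 14.22, 11.71 and 11.52 in cytotoxic T cells and 14.19, 14.22, 12.96 and 12.72 in B cells. Both types were higher in ranks 1 and 2 than in ranks 3 and 5. HBB was not called (-0.64, cytotoxic minus B, 95% interval -1.25 to -0.03). HBA1 and HBA2 were higher in B cells by 0.59 ± 0.17 and 0.57 ± 0.15, with adjusted p of 0.049 and 0.0446. HBA1 was lost without rank 1, 2 or 5 and HBA2 without any 1 animal (adjusted p 0.0516 to 0.148). The share of red cell RNA in other differences was not tested.

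Of the lists that served to gauge the scale and the purity of the sorts, 4 had no call. The others had some, with 2 of 3 genes on the NK cell list, 2 of 7 on the red cell list and 2 of 10 on the monocyte list. None of the 10 ribosomal protein genes, 8 granulocyte, 5 platelet and 4 dendritic cell genes was called by limma, and 3 of these 27 had an unadjusted p under 0.05. Their differences lay between -0.17 (RPS9) and 0.16 (RPL24 and RPS29), against a share of 25.4% called over all probes. The granulocyte, platelet and dendritic cell lists had mean levels of 7.84 to 8.11 in the arrays of both types, below the median of 8.39. The lack of a difference there says little of how pure the sorts were. In RPL30, at a mean of 14.51 in cytotoxic T cells against 14.49 in B cells, the 95% interval of the difference ran from -0.14 to 0.18.

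The difference between the types was much alike in the 4 animals. Each animal's difference correlated over probes with the mean difference of the other 3 at 0.886 to 0.909. When the animal of rank 1, 2, 3 or 5 was left out, 1315, 1262, 1554 and 1231 probes were called in the other 3, and 97.1%, 97.5%, 93.6% and 97.6% of these had the same sign in the animal left out. Over all probes, called or not, the share with the same sign was 72.2%, 73.9%, 70.6% and 74.0%. Of the probes with large differences in the other 3 animals, every one kept its sign in the left-out animal of rank 1, 2 or 5, and 366 of 368 did in rank 3.

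Some animals deviated alike. Deviations from the group means over probes correlated between the types of 1 animal at 0.581, 0.725, 0.601 and 0.673. They correlated positively between ranks 1 and 2 (0.247 and 0.405) and between ranks 3 and 5 (0.354 and 0.462). The values across these pairs (-0.585 to -0.393) are bound to be negative in part, because deviations from a mean of 4 arrays sum to 0. The labels name no batch that would set ranks 1 and 2 apart from ranks 3 and 5, and whether one exists was not tested. Within ranks 1 and 2 alone, 1432 probes were called, 716 in each direction, and within ranks 3 and 5 alone 1028 were, 527 higher in cytotoxic T cells against 501 in B cells. Large differences numbered 392 and 388. These arrays are part of the 8, so the counts are no repeat in other animals.

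The rank 4 pair did not share these differences. CD8A read 8.12 in its cytotoxic array and 8.35 in its B cell array, and CD79B 8.32 and 8.36. The rank 4 cytotoxic array correlated with the 8 arrays at 0.165 to 0.188 and the rank 4 B cell array at 0.155 to 0.184. Of the 375 probes with large differences, 200 had the same sign in this pair, and the correlation of its differences with those of the 4 animals over probes was 0.00844. With the pair included, 54 probes were called, 21 higher in cytotoxic T cells against 33 in B cells, and 26 of them had a large difference. Among the 30 leading genes only BASP1 was then called, as higher in B cells by 4.68 ± 0.34 (adjusted p = 0.00675). It read 11.13 in the rank 4 cytotoxic array and 14.60 in the B cell array. EGR1, at 12.33 and 14.04, also kept its direction there, while PPP2R2B turned, at 7.84 in the rank 4 cytotoxic array and brighter in the B cell array.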

How the data were processed

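Total RNA of sorted cells was measured on Illumina arrays with human probes, and lumi, an R package, is the tool in the submitters' processing notes, which give no version. The deposited values run from 7.50 to 14.77 and were read as log2, a base that the files do not state, and the authors had already normalized them: the sorted columns differ by at most 0.000913. The table named as not normalized and the other deposited table are identical, so no raw intensities were used. The sources used here do not state the background correction, the probe filter or the sorting gates.

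The contrast was fitted over all 7303 probes with limma 3.58.1 in R 4.3.3 (lmFit, eBayes; two-sided), with the animal as a block and Benjamini-Hochberg adjusted p under 0.05. Titles carry an animal code, which gives the pairing. The deviations of paired arrays correlated at 0.581 to 0.725. Errors are SE of the fit unless named. Probes were named by the platform annotation (6055 with 1 symbol, 1 with several, 1247 with none).

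Named are the 15 largest differences per side with the same direction in 4 animals, 1 probe a gene, and members of 27 gene lists (183 of 457 genes measured). CD8A and CD79B are the markers. Members and lists were chosen with earlier results of these data known. The analysis was also run on simulated data with known differences, and the outcome of that run is not reported here. Alternatives covered the block, the arrays, cyclic loess, dim probes, the variance model and each animal left out. The number of arrays limits precision.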

Additional observations from a re-analysis of the deposited data

Results flagged for a closer look

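In each group of 4 arrays, a value was singled out when its gap to the nearest of the others, divided by the range of the group, exceeded Dixon's 95% critical value for 4 values. This was met in 23 of 396 groups (5.81%), and chance gives about 1 in 20.

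In the cytotoxic arrays, GNLY was low in rank 2 (11.69 against 12.91 to 13.03), as was ITGB7 (10.72 against 11.72 to 11.84), and CD8B was low in rank 3 (8.92 against 9.32 to 9.4). The animal of rank 1 was high for FOSB (10.99 against 7.97 to 8.26), IFI44 (10.92 against 9.18 to 9.31), CD74 (9.30 against 8.70 to 8.78), B2M (13.42 against 13.22 to 13.24) and RPS29 (8.20 against 8.07 to 8.08). IKZF2 was high in rank 3 (8.36 against 8.15 to 8.16) and JCHAIN in rank 5 (7.75 against 7.66 to 7.68).

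In the B cell arrays, rank 2 was high for CST7 (8.59 against 8.24 to 8.29), TOX (8.39 against 7.93 to 7.99) and IKZF2 (8.23 against 8.16), and low for DUSP1 (8.24 against 8.71 to 8.81). Rank 1 was high for KLRF1 (8.0 against 7.85 to 7.87), SDC1 (8.15 against 8.09) and TREML1 (8.14 against 7.96 to 7.98). Rank 3 was low for CST3 (8.38 against 8.78 to 8.83), CXCR1 (7.81 against 7.92 to 7.93) and RPL23 (13.36 against 13.84 to 13.87). Rank 5 was high for LEF1 (8.47 against 8.19 to 8.23) and CCR4 (7.97 against 7.78 to 7.80) and low for MCM3 (8.39 against 8.64 to 8.67). Explanations for these values were not tested.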

How the results depend on the processing

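With the rank 4 pair added, the count of called probes was 54 (21 higher in cytotoxic T cells, 33 in B cells) in place of 1854 (981 and 873), and that of large differences 26 (8 and 18) in place of 375 (182 and 193). Of the 15 leading cytotoxic genes, 7 were higher than in helper T cells, and 0 were with all 20 arrays. For the comparisons with helper T cells and monocytes, the share called over all probes in the alternative fits is not given here. Without the replicate block for the animal, 993 probes were called (514 and 479). Leaving out 1 animal gave 1231 to 1554 called probes (655 to 811 higher in cytotoxic T cells, 576 to 743 in B cells) and 366 to 373 large differences (179 to 188 and 180 to 191), with 7 to 9 genes above helper T cells and 5 to 6 of the leading B cell genes above monocytes. Splits chosen after seeing the data gave 1432 probes in ranks 1 and 2 (716 and 716) and 1028 in ranks 3 and 5 (527 and 501). The cause of these changes was not tested, and the fits without 1 animal and the splits also held fewer arrays. A random block (1784), 16 arrays (1808), 18 arrays (1819), cyclic loess (1827), no dim probes (1394 of fewer tested) and a variance trend (1973) stayed within 1.5 times. No named gene that was called in the 8 arrays changed sign under any alternative run. With the mean of all probes of a gene the difference fell to 2.38 for SYTL2, 2.47 for ITM2A, 2.20 for IL7R and 2.13 for PPP2R2B. It came to 2.93 for ID2, 2.29 for RORA and -1.82 for TOX2.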

Other observations

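The genes that followed the leading 15 on each side, chosen here after their values were seen, add functions outside the lists. On the cytotoxic side SERPINA1, the inhibitor of neutrophil elastase known from liver and monocytes, read 10.95, 9.81, 10.68 and 10.97 in cytotoxic T cells and 7.99 to 8.03 in B cells, a difference of 2.59 ± 0.21 log2 (limma adjusted p = 0.000618), with 12.30 to 12.67 in monocytes. Its second probe differed by 1.24. The calcium pump ATP2B4 was higher in cytotoxic T cells by 2.86 ± 0.06, the cell cycle regulator RGCC by 2.58 ± 0.14, the nucleolar protein LYAR by 2.58 ± 0.08, the signal regulatory protein SIRPG, a ligand of CD47, by 2.36 ± 0.17 and the phosphoinositide phosphatase INPP4B by 2.07 ± 0.14.

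On the B cell side KCNIP3, a calcium sensor that binds potassium channels and DNA, read 10.11, 10.57, 10.78 and 10.46 in B cells and 7.64 to 7.74 in cytotoxic T cells, a difference of 2.80 ± 0.12 (adjusted p = 8.99e-05). The Golgi adaptor GGA2 was higher in B cells by 2.76 ± 0.17, the ubiquitin ligase adaptor KBTBD8 by 2.72 ± 0.10 and the membrane-bending protein MTSS1 by 2.52 ± 0.08. CDKN1A, the p21 inhibitor of cell division, read 11.05, 11.49, 11.51 and 10.49 in B cells and 8.32 to 8.91 in cytotoxic T cells, a difference of 2.44 ± 0.13, and was higher still in monocytes (12.68 to 13.57). ZBTB32, a zinc finger repressor that limits B cell responses in mice, differed by 2.17 ± 0.14. ADARB1, an RNA-editing adenosine deaminase, differed by 2.08 ± 0.30 and ALOX5AP, the partner of leukotriene synthesis, by 2.22 ± 0.32. KCNIP3, GGA2, KBTBD8, MTSS1, ZBTB32 and ADARB1 were also higher in B cells than in monocytes of the same animals, by 2.43, 2.36, 2.71, 2.16, 2.27 and 2.66, in the fit that shares the B cell arrays. ALOX5AP was higher in monocytes by 1.49 (adjusted p = 0.008).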
